A study of Macaca mulatta with 252 samples.

Results

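The magnocellular and parvocellular divisions of the dorsal lateral geniculate nucleus (LGN), the visual relay of the thalamus, were compared with layer 4 of visual areas V2 and MT (the middle temporal area) in the adult rhesus macaque. The comparison took 16 arrays of the 225 experimental arrays of the series: 4 magnocellular, 4 parvocellular, 4 from V2 layer 4 and 4 from MT layer 4. All animals were untreated as far as the labels state, and every array holds RNA of 1 dissected region of 1 animal. The series profiled 57 such region groups, from 10 neocortical areas by layer, 4 hippocampal fields and 3 LGN divisions, in 6 animals in all. The LGN arrays came from males A and C and females D and E. V2 layer 4 came from the same 4 animals, and MT layer 4 came from males A and C and females E and F. In each animal the magnocellular and parvocellular arrays were averaged to 1 value, as were the V2 and MT arrays. For female D the cortical side was V2 alone. Female F had no LGN array, so that 1 array adds nothing to the difference under the animal block, and every change below rests on 4 animals unless stated. Changes against MT alone, and those with 1 animal left out, rest on 3 animals. A dissected piece holds neurons, glia and vessels, so fewer cells of a type and less RNA per cell cannot be told apart. The study's design text names laser capture microdissection (LCM) for its hippocampal CA3 pieces. How the LGN and layer 4 pieces were outlined is not given in the sources used here.

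The LGN receives axons from the retina, and its relay neurons send glutamatergic axons to visual cortex, above all to layer 4 of V1. Magnocellular neurons are large and carry fast, achromatic signals, parvocellular neurons carry fine spatial and red-green signals, and koniocellular neurons lie between those layers. Relay neurons arise in the diencephalon, and cortical excitatory neurons arise in the telencephalon. Thalamic relay neurons use mainly the vesicular glutamate transporter SLC17A6, whereas most cortical excitatory neurons use SLC17A7. Layer 4 is the main input layer of sensory cortex and also holds interneurons.

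Of 10265 genes tested, 526 were higher and 549 were lower in the relay divisions. A call needed an adjusted p under 0.05 in limma and a log2 change of at least 1, which is at least 2-fold. The called share was 10.5%, with 5.12% of tested genes higher and 5.35% lower. Counts of called genes in the lists below are to be read beside these shares. At the adjusted p alone, 4618 genes (45%) differed. On the single arrays, 917 genes (8.93%) had all 8 LGN arrays above all 8 layer 4 arrays and 897 (8.74%) had them all below. The large changes leaned to the cortical side: 113 genes were higher and 195 lower by at least 2, and 36 were higher and 72 lower by at least 3. The median over all tested genes was 0.03 on the log2 scale. Of the 1075 called genes, 1074 had the same sign in all 4 animals. Changes below are LGN minus layer 4 on the log2 scale with the standard error (SE) of the fit, and levels are log2 intensities.

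**Figure D1:**
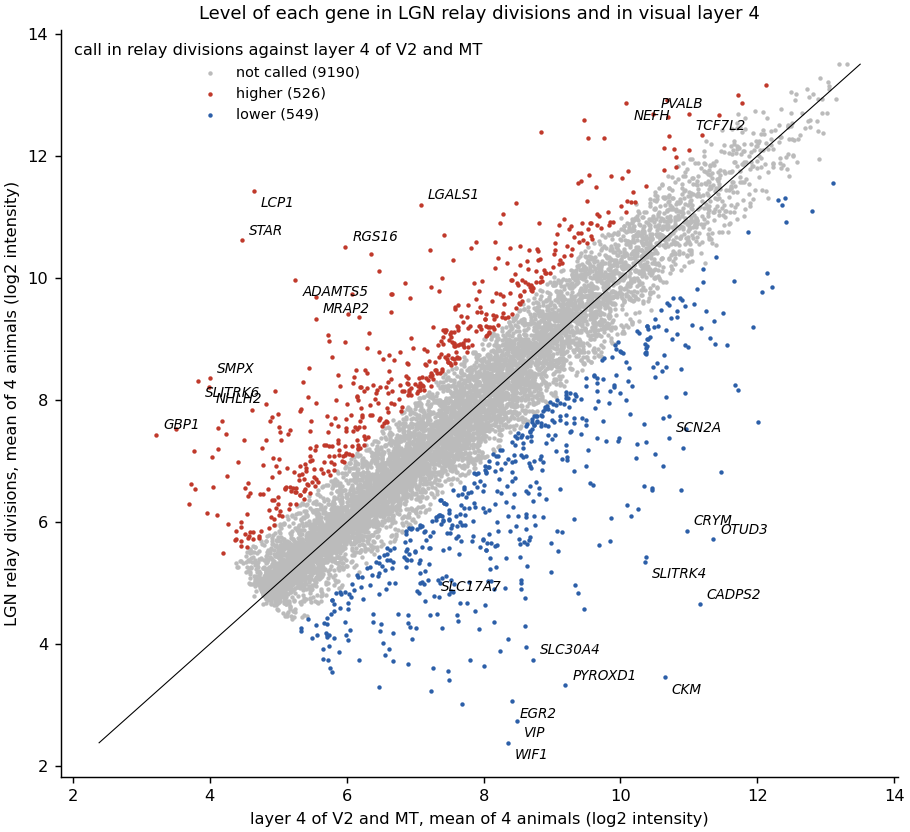
Each point is 1 of 10265 genes, with its mean level in layer 4 of V2 and MT on the x axis and in the LGN relay divisions on the y axis (log2 intensity, 4 animals each). The line marks equal levels. Red genes (526) were called higher and blue genes (549) lower, and LCP1 and STAR stand farthest above the line, CKM and CADPS2 farthest below it.

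Arrays within each group correlated at 0.981 or more over 14132 genes, with 1 probe set taken per gene, and no pair was identical. The GAPDH control probe sets differed between the sides: the 3 prime minus 5 prime difference, a sign of shorter RNA or cDNA where it is large, ran from 3.68 to 4.02 on the 8 LGN arrays and from 4.05 to 5.81 on the 8 layer 4 arrays. The V2 array of male A stood apart at 5.81. The ranges of the sides did not overlap, so the GAPDH difference is confounded with the side and a fit cannot fully separate them. The gap between the sides was smallest in female D (3.95 on both LGN arrays and 4.05 on the V2 array), whose cortical side has no MT array. The part of the GAPDH difference in the results was not tested beyond the fits that follow, which cannot settle it. With that difference as a covariate, 521 genes were called higher and 717 lower. Without the V2 array of male A, the counts were 482 and 552. These fits were added after the control probes had been seen. Summed levels of marker lists for other cells overlapped between the sides, except for endothelium and mural cells (8 genes): 10.01 to 10.56 on the LGN arrays and 9.35 to 9.92 on the layer 4 arrays. The sum for 10 oligodendrocyte genes ran from 13.64 to 13.99 and from 13.34 to 13.73, that for 12 astrocyte genes from 14.21 to 14.74 and from 14.03 to 14.52, and that for 11 microglial genes from 9.93 to 10.24 and from 9.30 to 10.21.

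The labelled tissue was checked against 4 genes. They were chosen with earlier results of these data known, so they are not an independent check of the labels. TCF7L2, a transcription factor of the Wnt pathway that marks the thalamus, ranged from 12.45 to 12.92 on the 8 LGN arrays, with a median of 12.67. On the 8 layer 4 arrays it ranged from 10.56 to 11.46, with a median of 11.19. The groups did not overlap, and TCF7L2 was higher by 1.69 ± 0.11 (SE, n = 4 animals, adjusted p = 2.19e-06). All 5 other probe sets for TCF7L2 above the median level were higher by 2.63 to 3.17, so the size of its difference depends on the probe set. Their layer 4 means ran from 5.76 to 10.89, against 11.10 on the probe set used. STAR, which carries cholesterol into mitochondria for steroid synthesis, ranged from 9.51 to 11.25 in LGN, with a median of 10.70, and from 3.78 to 4.77 in layer 4, with a median of 4.41. This was a 71.4-fold difference (6.16 ± 0.23, adjusted p = 6.7e-08), with every LGN array far above every layer 4 array. The nuclear receptor RORA ranged from 8.01 to 9.16 in LGN, with a median of 8.61, and from 6.75 to 7.81 in layer 4, with a median of 7.49. RORA was higher by 1.33 ± 0.14 (adjusted p = 6.88e-05), the smallest of the 4 changes, and the groups lay close without overlapping. SLC17A7 went the other way. It ranged from 4.51 to 5.02 in LGN, with a median of 4.75, and from 6.88 to 7.66 in layer 4, with a median of 7.30. SLC17A7 changed by -2.49 ± 0.13 (adjusted p = 5.7e-07), again without overlap. SLC17A6 is not named by a probe set of its own and was not analysed here.

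**Figure D2:**
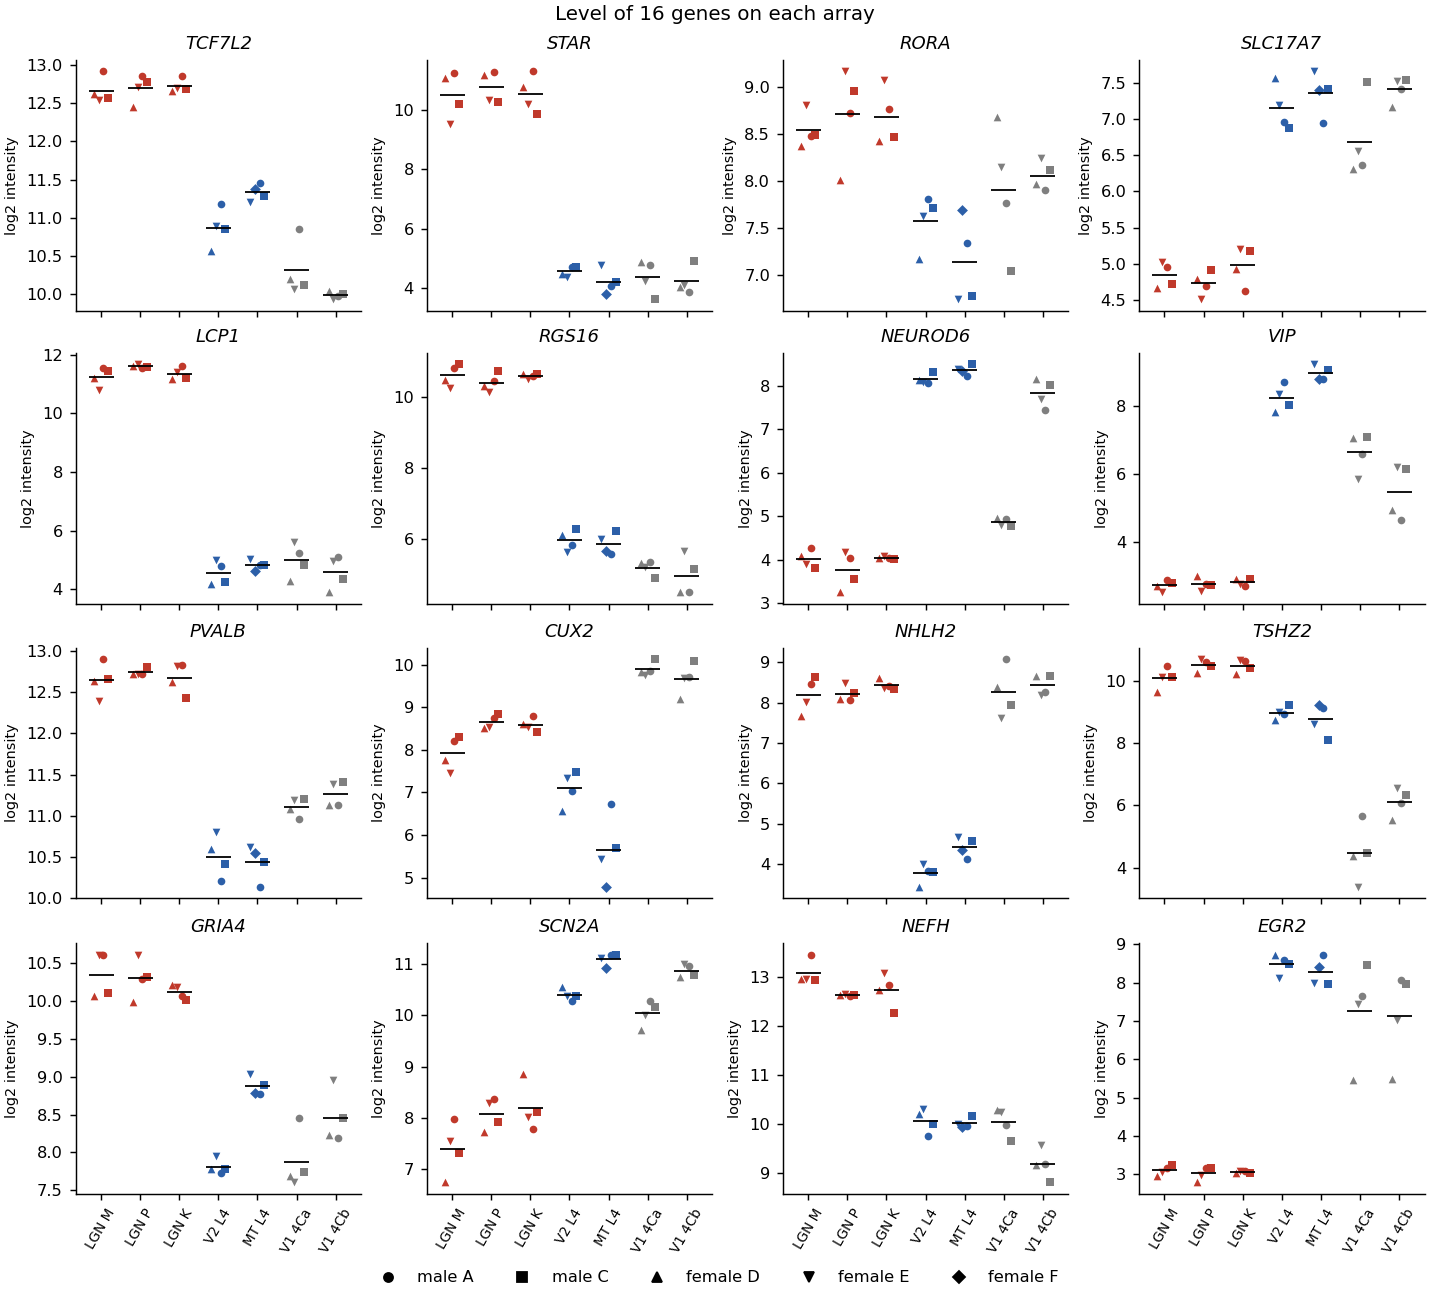
Each point is 1 array, with log2 intensity on the y axis and region on the x axis, for 16 genes; the marker shape gives the animal and the bar the group mean. Red points are LGN divisions (M, magnocellular; P, parvocellular; K, koniocellular), blue points layer 4 of V2 and MT, and grey points layers 4Ca and 4Cb of V1. TCF7L2, STAR and LCP1 are high on every LGN array, SLC17A7, NEUROD6 and VIP are low there, and NHLH2 in V1 layer 4C lies at the LGN level.

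Across the 57 region groups, these genes differed in how far the LGN stood from the rest. STAR was at 10.49 in the magnocellular and 10.75 in the parvocellular division, and the highest of the 54 groups outside the LGN, S1 layer 5, was at 5.07. For TCF7L2 the highest other group on the probe set used was MT layer 4, at 11.33, which is on the cortical side of the comparison itself. For RORA it was V1 layer 4Cb, at 8.06, against 8.54 and 8.71 in the relay divisions. SLC17A7 was lower in both relay divisions (4.84 and 4.73) than in all 54 other groups, of which V1 layer 4Ca was lowest at 6.69. RORA was the 1 of the 4 genes whose call was lost against layers 4Ca and 4Cb of V1, where its change was 0.64.

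**Figure D3:**
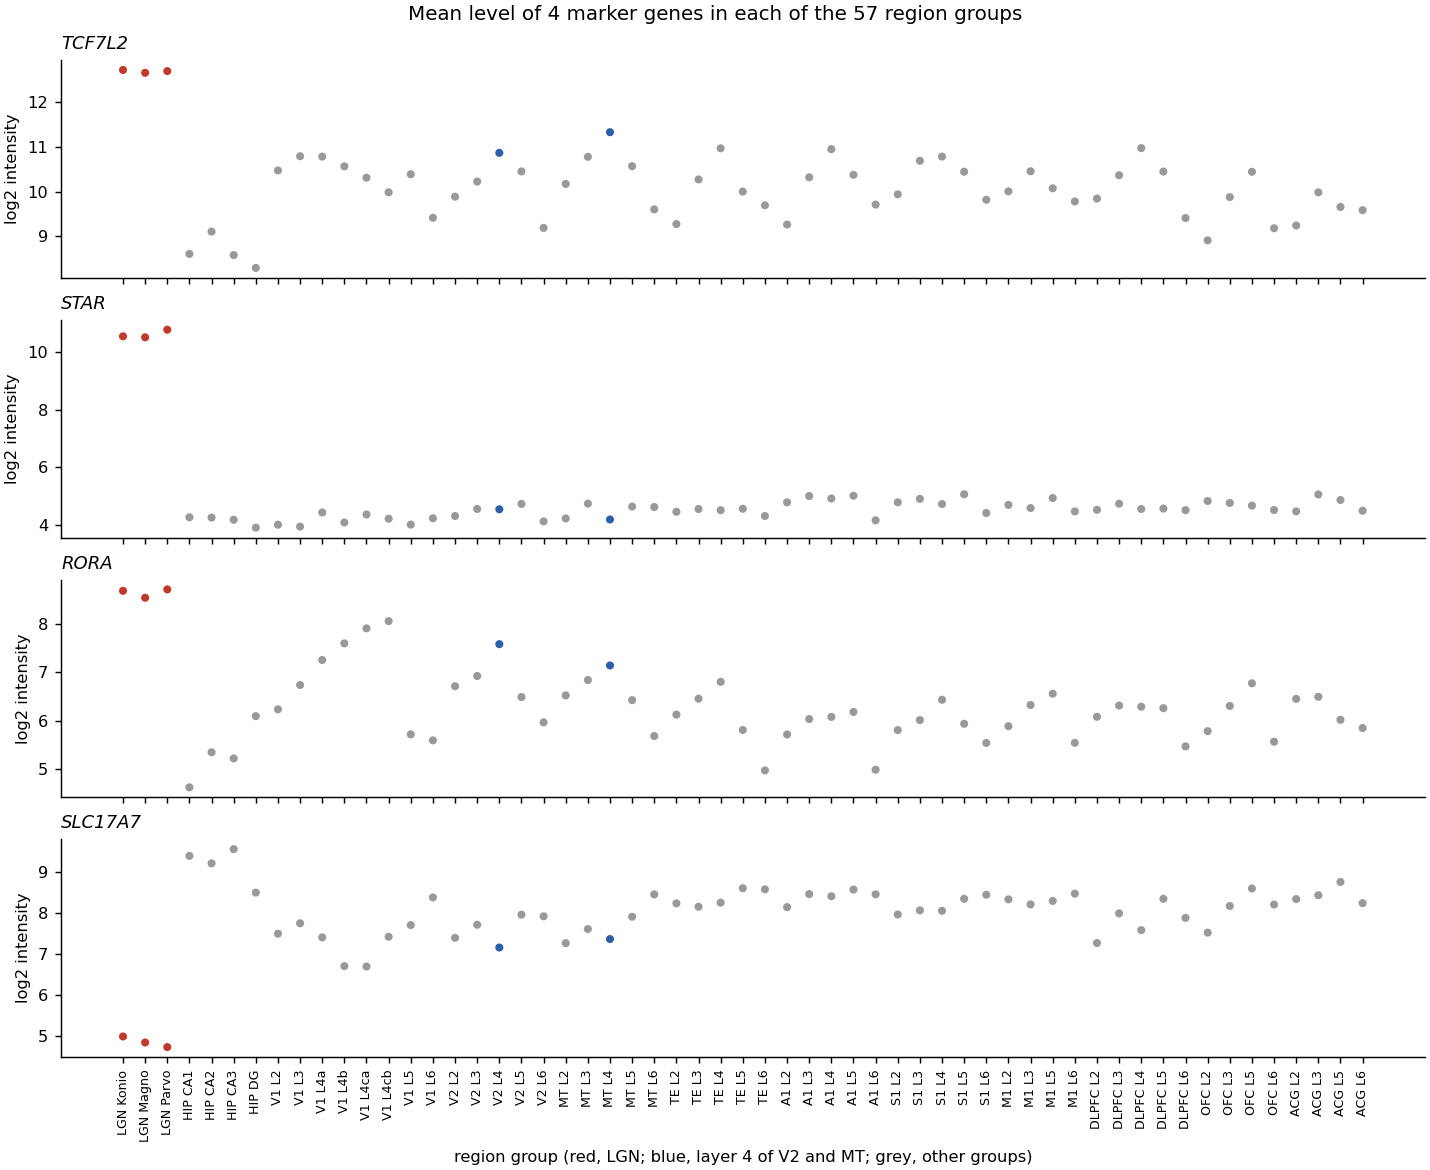
The mean level (log2 intensity, y axis) of TCF7L2, STAR, RORA and SLC17A7 in each of the 57 region groups (x axis). Red points are the 3 LGN divisions, blue points layer 4 of V2 and MT, and grey points all other groups; HIP is hippocampus. STAR has no other group near the LGN, whereas RORA climbs toward the LGN level in V1 layer 4C.

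Genes of thalamic relay identity were mostly higher. Of 9 tested members, 5 were called higher and 0 lower, with a median of 1.33, beside 5.12% and 5.35% and a median of 0.03 over all tested genes. At the adjusted p alone, 6 were higher and 1 lower, and the lowest change was -0.685. In the koniocellular comparison described last, 5 of the 9 tested were called higher and 1 lower. RGS16, a regulator of G protein signalling, ranged from 10.15 to 10.92 in LGN, with a median of 10.45, and from 5.58 to 6.30 in layer 4, with a median of 5.93. RGS16 was higher by 4.53 ± 0.12 (adjusted p = 1.31e-08), and its second probe set moved the same way. The homeobox factor SHOX2 was higher by 1.94 ± 0.10 on the probe set used, which had the highest mean over all arrays. Other SHOX2 probe sets were higher by 8.17 (11.86 on the LGN arrays against 3.63 in layer 4) and by 5.27 (8.44 against 3.16), so the size of the SHOX2 difference depends on the probe set. The RNA-editing enzyme ADARB1 was higher by 1.84 ± 0.13. SHOX2, ADARB1 and RGS16 were higher in both relay divisions than in all 54 groups outside the LGN. PRKCD, a protein kinase that marks relay nuclei in rodents, was not called (0.15 ± 0.10, adjusted p = 0.22).

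Factors that pattern the diencephalon gave 3 called higher and 0 lower of 7 tested, with a median of 0.73. At the adjusted p alone, 4 were higher and 1 lower, and the lowest change was -0.78. ZIC2, a zinc finger factor, ranged from 8.84 to 10.37 in LGN, with a median of 9.79, and from 6.32 to 7.16 in layer 4, with a median of 6.50. It was higher by 3.08 ± 0.19 (adjusted p = 1.46e-06). The difference ran from 2.43 to 3.61 over the 4 animals. IRX3, an Iroquois homeobox factor, was higher by 2.84 ± 0.20 and ZIC4 by 1.54 ± 0.14. All 3 exceeded every group outside the LGN.

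With 1 probe set taken per gene, the largest increase was that of LCP1, an actin-bundling protein best known from blood cells. LCP1 ranged from 10.79 to 11.67 in LGN, with a median of 11.55, and from 4.19 to 5.05 in layer 4, with a median of 4.80. It was higher by 6.78 ± 0.15 (adjusted p = 6.21e-09), and its second probe set was higher by 3.32. Microglia also express LCP1. Of 11 microglial genes tested, P2RY12 was called higher, 4 were higher and 1 lower at the adjusted p alone, and their median was 0.18. AIF1 changed by 0.18 ± 0.11 (adjusted p = 0.193) and CD53 by -0.56 ± 0.17 (adjusted p = 0.0269), and the part of microglia in the LCP1 difference was not tested. After LCP1 and STAR came ADAMTS5, a protease of the extracellular matrix (4.72 ± 0.12), RGS16, and SLITRK6, a membrane protein of neurite growth (4.48 ± 0.15). The muscle protein gene SMPX was higher by 4.35 ± 0.10. The neuronal transcription factor NHLH2 was higher by 4.23 ± 0.11. MRAP2, an accessory protein of melanocortin receptors, was higher by 4.14 ± 0.22. The galectin LGALS1 was higher by 4.12 ± 0.17. LCP1, ADAMTS5, SLITRK6, SMPX, MRAP2 and LGALS1 exceeded all 54 groups outside the LGN in both relay divisions.

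NHLH2 and GBP1, an interferon-inducible GTPase, were the exceptions among the 10 largest increases, as neither exceeded all 54 groups outside the LGN. NHLH2 was at 8.26 and 8.44 in layers 4Ca and 4Cb of V1, against 8.20 and 8.23 in the relay divisions. GBP1 ranged from 5.43 to 8.71 on the LGN arrays, with a median of 7.60, and from 2.78 to 4.35 in layer 4, with a median of 3.11. GBP1 was higher by 4.21 ± 0.27, but 34 of the 54 other groups had a mean above the lower of the relay divisions, and the highest was hippocampal CA1 at 10.87. In the koniocellular comparison described last, GBP1 changed by 1.13.

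Genes of cortical excitatory identity were mostly lower. Of 15 tested, 10 were called lower and 1 higher, with a median of -1.31. NEUROD6, a basic helix-loop-helix factor of telencephalic excitatory neurons, ranged from 3.25 to 4.27 in LGN, with a median of 3.97, and from 8.07 to 8.50 in layer 4, with a median of 8.27. It changed by -4.35 ± 0.13 (adjusted p = 2.18e-08) without overlap. In V1, NEUROD6 ranged from 4.78 to 4.97 in layer 4Ca, near the LGN arrays, and from 7.45 to 8.15 in layer 4Cb. The size of its difference therefore depended on the area and layer taken as cortex. NRGN, a calmodulin-binding protein of dendritic spines, changed by -3.81 ± 0.14. The transcription factor BCL11A changed by -3.43 ± 0.10, and the LIM-domain factors LMO3 and LMO4 by -3.42 ± 0.10 and -2.65 ± 0.10. NRGN, BCL11A, LMO3, LMO4 and SLC17A7 were lower in both relay divisions than in all other groups. EMX1, a homeobox factor of the dorsal telencephalon, changed by -1.23 ± 0.10. Its call was lost against MT alone (-0.89) and against V1 layer 4C (-0.95). The exception in the called set was NR2F2, a nuclear receptor, which was higher by 1.22 ± 0.12. TBR1, a T-box factor of cortical excitatory neurons, was not called (0.15 ± 0.11, adjusted p = 0.277). TBR1 ranged from 10.46 to 11.03 in LGN and from 10.05 to 11.13 in layer 4, so the arrays overlapped. With all probe sets of TBR1 averaged, its change was -0.65.

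Among the largest decreases were genes of several functions. The probe set annotated to the muscle creatine kinase CKM ranged from 3.18 to 3.90 in LGN, with a median of 3.35, and from 10.24 to 11.09 in layer 4, with a median of 10.85. Its change was -7.19 ± 0.10 (adjusted p = 8.48e-10). A second CKM probe set at low levels (5.46 in LGN and 5.22 in layer 4) changed by 0.24, so the value belongs to 1 probe set. CADPS2, which primes dense-core vesicles for release, ranged from 4.14 to 5.20 in LGN, with a median of 4.57, and from 10.79 to 11.63 in layer 4, with a median of 11.22. Its change was -6.50 ± 0.11 (adjusted p = 1.76e-09). WIF1, a secreted inhibitor of Wnt ligands, ranged from 2.22 to 2.64 in LGN, with a median of 2.38, and from 7.92 to 8.77 in layer 4, with a median of 8.49. Its change was -5.97 ± 0.11 (adjusted p = 2.2e-09). None of CKM, CADPS2 and WIF1 had overlapping arrays, and in all 3 both relay divisions were below all 54 other groups.

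The other large decreases were PYROXD1, an oxidoreductase (-5.86 ± 0.12), the deubiquitinase OTUD3 (-5.63 ± 0.25) and CRYM, a thyroid hormone binding protein (-5.11 ± 0.16). SLITRK4, a relative of SLITRK6, changed by -5.02 ± 0.12, opposite in sign to SLITRK6, and the zinc transporter SLC30A4 changed by -4.97 ± 0.10. A second probe set of OTUD3, at 4.49 in LGN and 5.24 in layer 4, changed by -0.74. The mean LGN levels of CKM, CADPS2, WIF1, PYROXD1 and SLC30A4 lay below 4.80, the median over all probe sets. Those of OTUD3 (5.72), CRYM (5.86) and SLITRK4 (5.34) lay above it. No detection call was used, so such a change is a difference of intensity and does not show that a transcript is absent.

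Genes known from layer 4 and the upper layers split. Of 16 tested, 3 were higher and 4 lower, with a median of -0.03. RORB, a nuclear receptor that marks layer 4, ranged from 4.07 to 4.57 in LGN, with a median of 4.40, and from 6.14 to 6.80 in layer 4, with a median of 6.29. It changed by -2.03 ± 0.12 (adjusted p = 1.34e-06), opposite in sign to its relative RORA. The protocadherin PCDH8 changed by -4.05 ± 0.17 and the metalloprotease TLL1 by -2.75 ± 0.20. The TLL1 arrays overlapped, and its mean was 5.24 in the magnocellular and 3.28 in the parvocellular division. EYA4, a transcriptional coactivator, changed by -1.65 ± 0.28, and by -0.40 with the GAPDH difference as a covariate. CUX2, a homeobox factor of upper-layer neurons, was higher in LGN: it ranged from 7.46 to 8.85, with a median of 8.41, against 4.78 to 7.48 in layer 4, with a median of 6.64. The CUX2 arrays overlapped slightly, and the change was 1.69 ± 0.11 (adjusted p = 2.13e-06). CARTPT, a neuropeptide precursor, was higher by 3.48 ± 0.29, with a change of 4.20 against V2 alone and 2.10 against MT alone. TSHZ2, a zinc finger factor, was higher by 1.5 ± 0.11.

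Layer 4C of V1, the main cortical target of the relay axons, gave other values for some of these genes. NHLH2 was at 8.26 in layer 4Ca and 8.44 in layer 4Cb of V1, against 8.20 and 8.23 in the relay divisions and 3.77 and 4.43 in layer 4 of V2 and MT. Its change against V1 layer 4C was therefore -0.14, and no call was made. CUX2 changed by -1.48 against V1 layer 4C, since it was at 9.89 and 9.67 there. The change of TSHZ2 went from 1.5 to 5.01 against V1, where it was at 4.48 in layer 4Ca and 6.11 in layer 4Cb. SMPX, at 6.95 and 6.53 in V1 layer 4C, changed by 1.62 against V1 in place of 4.35. NTNG1, a netrin-like membrane protein, changed by 1.73 against V1 in place of 4.04. Some genes lower in the relay divisions did not pass the level filter in the comparison with V1 layer 4C, so they have no test there. TLL1 was at 3.77 in layer 4Ca and 4.73 in layer 4Cb, against 4.26 on the LGN arrays. PCDH8 was at 4.95 and 5.14, against 3.74. KCNS3 was at 3.50 and 4.21 against 3.74 in LGN, GRP at 3.72 and 4.82 against 3.61, and RXFP1 at 4.81 and 4.55 against 4.36. VIP (6.65 and 5.49) and HAPLN1 (5.56 and 6.03) also had no test against V1, with LGN levels of 2.75 and 3.75. The difference for NHLH2, CUX2, TSHZ2, SMPX, NTNG1, TLL1, PCDH8, KCNS3, GRP and RXFP1 therefore depended on the visual area taken as layer 4. The same held for other genes whose V1 value stands beside them. PRKG1 was at 8.60 in layer 4Ca and 8.37 in layer 4Cb, against 8.63 and 8.97 in the relay divisions. TAC3 was at 5.41 and 5.44, against 5.37 and 5.32. RARB, CAMK4 and HRH1 also lay closer to the LGN level there than in layer 4 of V2 and MT. Of the named genes tested against V1 layer 4C, 19 were weaker, 7 turned in sign, 111 were the same and 1 was stronger. The difference between V1 and the other areas itself was not tested here.

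Genes of cortical interneurons gave 4 called lower and 1 higher of 9 tested, with a median of -0.52. The neuropeptide VIP, which marks a class of cortical interneuron, ranged from 2.53 to 2.99 in LGN, with a median of 2.75, and from 7.83 to 9.24 in layer 4, with a median of 8.77. It changed by -5.74 ± 0.18 (adjusted p = 2.86e-08) without overlap. The homeobox factors DLX1 and LHX6, which specify interneurons of the ventral telencephalon, changed by -3.80 ± 0.12 and -3.07 ± 0.11. A second DLX1 probe set changed by -0.34. SOX6, a factor of interneuron maturation, changed by -1.54 ± 0.14, and by -0.72 with all its probe sets averaged. PVALB, a calcium-binding protein found in fast-spiking interneurons and also in LGN relay neurons, went the other way. It ranged from 12.39 to 12.90 in LGN, with a median of 12.72, and from 10.14 to 10.80 in layer 4, with a median of 10.50. PVALB was higher by 2.21 ± 0.13 (adjusted p = 1.47e-06), and both relay divisions exceeded all other groups. GAD1 and GAD2, which make GABA, changed by -0.52 ± 0.14 and -0.35 ± 0.10 and were not called. GAD1 ranged from 10.77 to 12.24 in LGN and from 11.61 to 12.45 in layer 4, so its arrays overlapped.

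Ionotropic glutamate receptor genes gave 1 called higher and 2 lower of 6 tested. GRIA4, an AMPA receptor subunit with fast kinetics, ranged from 9.99 to 10.61 in LGN, with a median of 10.30, and from 7.73 to 9.03 in layer 4, with a median of 8.37. It was higher by 2.10 ± 0.10 (adjusted p = 3.98e-07). With all probe sets averaged the change was 0.98. The AMPA subunit GRIA1 changed by -1.68 ± 0.15 and by -0.69 against V1 layer 4C. The kainate subunit GRIK1 changed by -1.09 ± 0.14, and lost its call without female E (-0.97) and against V2 alone (-0.84). The NMDA subunits GRIN3B and GRIN2C (0.13 and -0.17) and the delta subunit GRID1 (0.00) were not called. None of 5 tested GABA receptor genes was called by limma, while 3 passed the adjusted p alone and 3 an unadjusted p under 0.05. GABRA2 changed by -0.99 ± 0.13 and GABRB1 by -0.58 ± 0.12, and GABRA3 by 0.71 ± 0.11. GABRA4 (0.13) and GABRE (0.04) did not pass.

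Of 13 tested receptors for monoamines and histamine, 2 were lower and 0 higher. The serotonin receptor HTR2A ranged from 3.52 to 4.05 in LGN, with a median of 3.69, and from 6.31 to 7.65 in layer 4, with a median of 6.67. It changed by -2.95 ± 0.12 (adjusted p = 1.2e-07), and by -4.64 against V1 layer 4C, where it reached its highest level of any group (8.73 in layer 4Cb). The histamine receptor HRH1 changed by -1.70 ± 0.13, with -1.14 against V2 alone and -2.56 against MT alone. None of 6 tested acetylcholine receptor genes was called by limma, while 3 were higher at the adjusted p alone and the same number passed an unadjusted p under 0.05. Of 22 genes for neuropeptides and their receptors, CARTPT was higher and 6 were lower. Besides VIP, the decreases were OPRL1, the nociceptin receptor (-4.15 ± 0.11), the cholecystokinin receptor CCKBR (-2.17 ± 0.12), the relaxin receptor RXFP1 (-1.61 ± 0.14) and the peptide precursors GRP (-2.15 ± 0.16) and TAC3 (-1.08 ± 0.10). A second OPRL1 probe set changed by -0.06, and the TAC3 call was lost without the animal block (-0.92). GRP was at low levels, with 3.61 on the LGN arrays and 5.85 in layer 4.

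Among voltage-gated channel genes, those called were more often lower than higher, where 5.12% of all tested genes were higher and 5.35% lower. Of 5 sodium channel genes tested, 3 were lower and 0 higher, with a median of -1.29. SCN2A, the sodium channel of many cortical axons, ranged from 6.74 to 8.36 in LGN, with a median of 7.82, and from 10.28 to 11.19 in layer 4, with a median of 10.74. It changed by -2.97 ± 0.14 (adjusted p = 2.22e-07), with both relay divisions below all other groups. SCN3B, an auxiliary subunit, changed by -1.29 ± 0.16 and SCN3A by -1.30 ± 0.16, the latter losing its call against V2 alone (-0.77). Of 11 calcium channel genes, 2 were lower and 0 higher, and at the adjusted p alone 5 were lower and 2 higher. CACNA1B, the N-type channel of presynaptic terminals, changed by -3.55 ± 0.11, and CACNA1I, a T-type channel, by -2.58 ± 0.10. Second probe sets of both, at low levels, changed by -0.07 and -0.14. The T-type gene CACNA1G was not analysed here. HCN3, a pacemaker channel, changed by 0.47 ± 0.10 and was not called.

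Of 36 potassium channel genes tested, 3 were higher and 10 lower, with a median of -0.11. At the adjusted p alone the list was closer to even, with 11 higher and 14 lower. KCNA3, a Shaker-type channel, ranged from 4.03 to 4.55 in LGN, with a median of 4.32, and from 6.57 to 7.62 in layer 4, with a median of 6.77. It changed by -2.65 ± 0.16 (adjusted p = 1.62e-06). KCNS3, a modulatory subunit, changed by -1.99 ± 0.12. The inward rectifiers KCNJ6 and KCNJ4 changed by -1.87 ± 0.16 and -1.37 ± 0.10. KCNIP3, a calcium-binding partner of A-type channels, changed by -1.49 ± 0.13. The calcium-activated channel KCNMA1 changed by -1.33 ± 0.23, and by -0.63 against V1 layer 4C. The increases were 2 channels of the ether-a-go-go family, KCNH5 (1.46 ± 0.11) and KCNH2 (1.27 ± 0.14), and the Shaker-type KCNA5 (1.20 ± 0.10). With all probe sets averaged, KCNH5 changed by 0.75 and KCNH2 by 0.52.

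**Figure D4:**
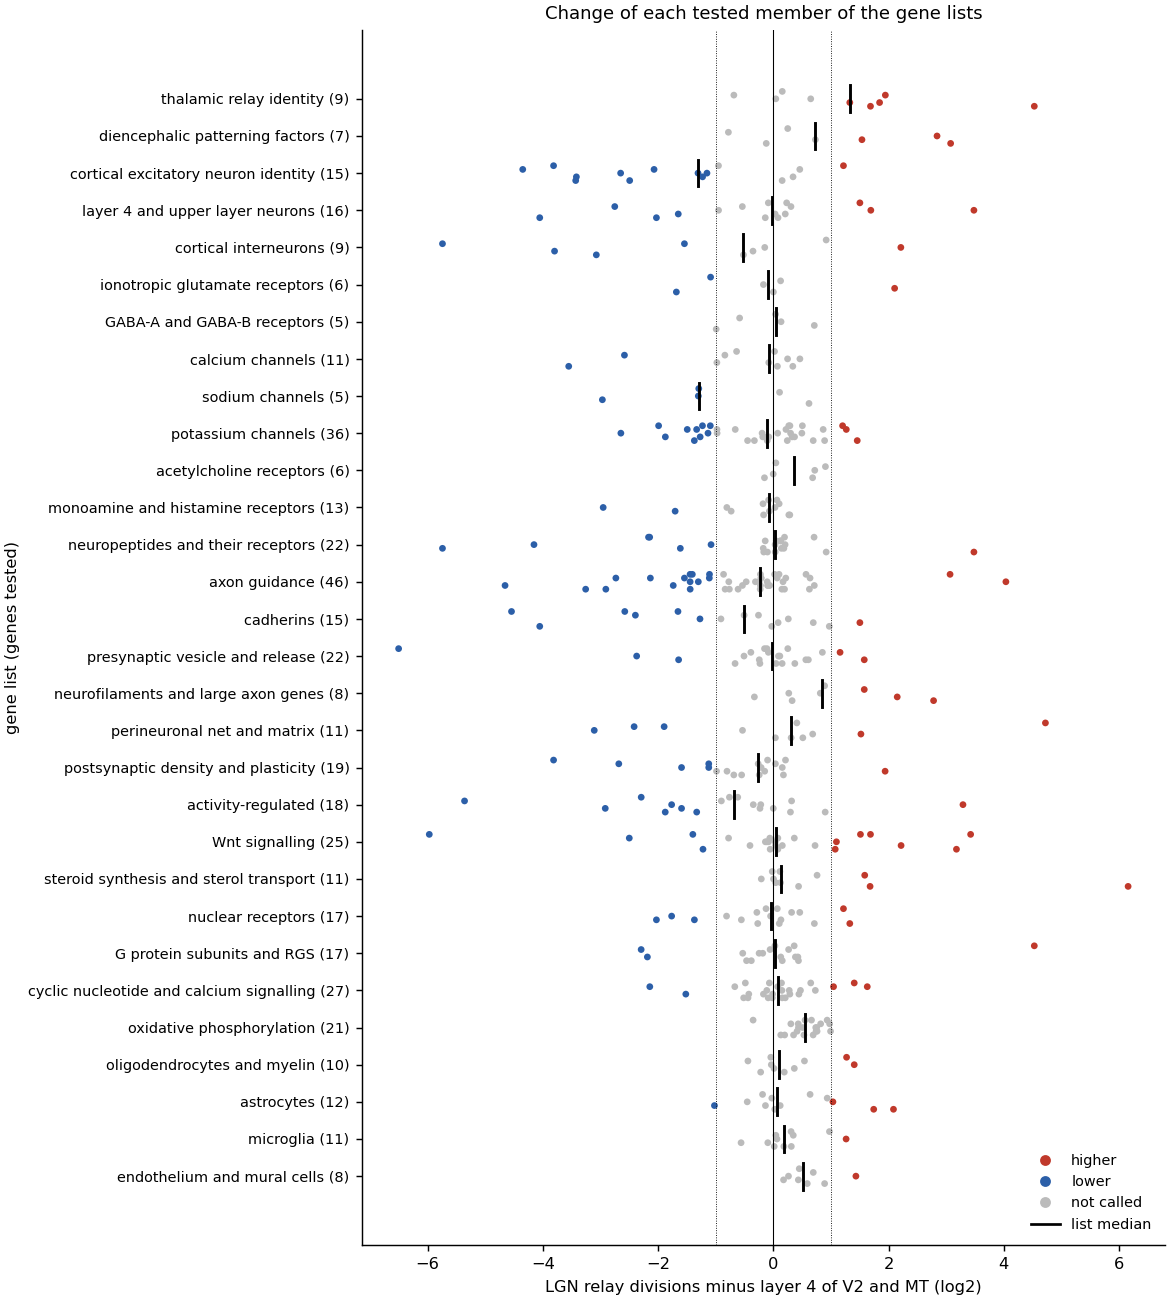
Each point is 1 tested gene of a list, with its change in the LGN relay divisions against layer 4 of V2 and MT on the x axis (log2) and the lists on the y axis, with the number of genes tested in brackets; a gene can stand in more than 1 list. Red and blue points were called higher and lower, black bars are list medians and dotted lines mark a change of 1 in either direction. Cortical excitatory genes lie mostly left of 0 with a median of -1.31 and relay genes mostly right of it with a median of 1.33.

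Presynaptic genes changed in both directions: of 22 tested, 2 were higher and 3 lower, with a median of -0.02, beside a called share of 10.5% over all tested genes. Besides CADPS2, the decreases were the complexin CPLX2 (-2.37 ± 0.14), which binds the release machinery, and the calcium sensor DOC2A (-1.64 ± 0.11). A second CPLX2 probe set changed by -0.15, and DOC2A changed by -0.17 against V1 layer 4C. VAMP1, a synaptobrevin of fast synapses, was higher by 1.58 ± 0.10. SYNPR, a synaptic vesicle protein, was higher by 1.16 ± 0.14, and lost its call without male A (0.99) and against MT alone (0.73). Other SYNPR probe sets above the median level changed by 0.00 (8.75 on the LGN arrays and 8.80 in layer 4) and 0.11.

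Genes of neurofilaments and large axons gave 3 higher and 0 lower of 8 tested, with a median of 0.85. NEFH, the heavy neurofilament subunit, ranged from 12.62 to 13.47 in LGN, with a median of 12.80, and from 9.76 to 10.31 in layer 4, with a median of 10.00. It was higher by 2.78 ± 0.12 (adjusted p = 1.81e-07). NEFH was at 13.09 in the magnocellular and 12.64 in the parvocellular division, and M1 layer 5, the highest group outside the LGN, was at 12.78. SPP1, osteopontin, which large projection neurons express, was higher by 2.15 ± 0.10 and exceeded every group outside the LGN.

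Of 11 genes of perineuronal nets and matrix, 2 were higher and 3 lower. ADAMTS5 and the link protein HAPLN4 (1.52 ± 0.14) were higher. The matrix protein CRTAC1 changed by -3.11 ± 0.11, the protease ADAMTS3 by -2.42 ± 0.33 and the link protein HAPLN1 by -1.90 ± 0.17. Proteases thus had a member on both sides. For link proteins the lower side rests on HAPLN1, a gene at low levels. It was at 3.75 on the LGN arrays and 5.77 in layer 4, beside a median of 4.80 over all probe sets. HAPLN4 changed by 0.96 against V1 layer 4C and was not called there.

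Of 19 postsynaptic genes, 5 were lower and 1 higher, with a median of -0.26. Besides NRGN, the decreases were ITPKA, an inositol kinase of dendritic spines (-2.68 ± 0.11), the scaffold HOMER1 (-1.59 ± 0.11), the kinase CAMK4 (-1.12 ± 0.15) and the scaffold DLGAP1 (-1.12 ± 0.15). CAMK4 lost its call without male A (-0.94) and DLGAP1 without female D (-0.97). The delta form of the calcium-calmodulin kinase II, CAMK2D, ranged from 12.41 to 12.84 in LGN, with a median of 12.64, and from 9.76 to 11.29 in layer 4, with a median of 10.97. CAMK2D was higher by 1.94 ± 0.10 (adjusted p = 5.31e-07), and both of its other probe sets moved the same way.

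Axon guidance genes were more often lower, with 14 lower and 2 higher of 46 tested and a median of -0.24. Among ligands, NTN4, a netrin, ranged from 2.54 to 3.71 in LGN, with a median of 2.93, and from 7.12 to 8.60 in layer 4, with a median of 7.82. It changed by -4.66 ± 0.14 (adjusted p = 2.28e-08). NTNG1 ranged from 10.14 to 10.55 in LGN, with a median of 10.42, and from 6.07 to 6.82 in layer 4, with a median of 6.32. NTNG1 was higher by 4.04 ± 0.12 (adjusted p = 2.08e-08), so these netrin family members lay on opposite sides. Among receptors, the Slit receptor ROBO1 was higher by 3.07 ± 0.14, while the netrin receptor UNC5A changed by -3.26 ± 0.10. The ephrin receptors EPHB1 and EPHB6 changed by -2.91 ± 0.11 and -2.73 ± 0.13, the adhesion protein FLRT3 by -2.13 ± 0.10 and the semaphorin co-receptor PLXNA2 by -1.74 ± 0.14. PLXNA2 changed by -0.63 against V1 layer 4C.

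Of 15 cadherin genes, 6 were lower and 1 higher, with a median of -0.51. PCDH20 ranged from 4.06 to 6.76 in LGN, with a median of 4.76, and from 8.91 to 10.18 in layer 4, with a median of 9.44, and changed by -4.54 ± 0.17. The classical and type II cadherins CDH10, CDH8, CDH22 and CDH7 changed by -2.58 ± 0.13, -2.39 ± 0.13, -1.66 ± 0.10 and -1.27 ± 0.15. PCDH10 was higher by 1.5 ± 0.17, and a second probe set of it changed by 0.27.

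Wnt pathway genes changed in both directions, with 7 higher and 4 lower of 25 tested and a median of 0.04. The ligand WNT16 ranged from 6.39 to 8.34 in LGN, with a median of 7.75, and from 3.23 to 5.36 in layer 4, with a median of 3.96. It was higher by 3.42 ± 0.12 (adjusted p = 6.53e-08). The ligands WNT3 and WNT5A were higher by 3.18 ± 0.20 and 2.22 ± 0.14. The R-spondins, secreted enhancers of Wnt signalling, split: RSPO3 was higher by 1.51 ± 0.15 and RSPO2 changed by -2.50 ± 0.14. RSPO3 lost its call against MT alone (0.78). The co-receptor LRP6 changed by -1.40 ± 0.11 and the secreted antagonist SFRP1 by -1.22 ± 0.13, beside WIF1 among the inhibitors. A second LRP6 probe set changed by 0.12. DKK3, a secreted protein of the Dickkopf family, was higher by 1.10 ± 0.12, and by 1.88 and 1.96 on further probe sets, but its call was lost with the GAPDH difference as a covariate (0.81), with quantile normalization (0.99) and with all probe sets averaged (0.92). LRP6 was at -0.93 against MT alone and SFRP1 at -0.93 against V2 alone, where they were not called.

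Of 11 genes of steroid synthesis and sterol transport, 3 were higher and 0 lower, with a median of 0.13. Besides STAR these were FDX1, the ferredoxin that feeds electrons to mitochondrial steroid enzymes (1.68 ± 0.11), and STARD4, a sterol carrier (1.59 ± 0.11). FDX1 arrays overlapped between the sides (8.38 to 9.57 and 6.74 to 8.67). STARD4 changed by 0.79 against MT alone and was not called there. Among 17 nuclear receptors, RORA and NR2F2 were higher, and RORB, NR4A1 (-1.76 ± 0.10) and the retinoic acid receptor RARB (-1.37 ± 0.14) were lower. Of 17 genes of G proteins and their regulators, RGS16 was higher, and RGS4 (-2.29 ± 0.10) and RGS20 (-2.19 ± 0.14) were lower.

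Of 27 genes of cyclic nucleotide and calcium signalling, 3 were higher and 2 lower. The cGMP-dependent kinase PRKG1 was higher by 1.63 ± 0.15 and the adenylyl cyclase ADCY8 by 1.40 ± 0.17. The phosphodiesterase PDE10A was higher by 1.04 ± 0.20, and lost its call without female E (0.75), without the V2 array of male A (0.83) and against MT alone (0.11). The intracellular calcium release channels RYR2 and ITPR1 changed by -2.14 ± 0.15 and -1.52 ± 0.11. For ITPR1 the change was -0.98 with the magnocellular and -2.06 with the parvocellular division as the LGN side, and the difference between the divisions was not tested here.

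Activity-regulated genes gave 7 lower and 1 higher of 18 tested, with a median of -0.69. The probe set of EGR2, an immediate early transcription factor, ranged from 2.78 to 3.23 in LGN, with a median of 3.10, and from 7.96 to 8.73 in layer 4, with a median of 8.46. It changed by -5.36 ± 0.15 (adjusted p = 1.31e-08), while a second EGR2 probe set, at 4.95 in LGN and 4.94 in layer 4, changed by -0.02. The transcription factors KLF10, EGR4 and NR4A1 changed by -2.92 ± 0.23, -2.29 ± 0.09 and -1.76 ± 0.10, and ARC, a regulator of AMPA receptor traffic, by -1.88 ± 0.12. NPTX2, a secreted pentraxin that clusters AMPA receptors, ranged from 10.37 to 11.02 in LGN, with a median of 10.75, and from 6.77 to 8.18 in layer 4, with a median of 7.27. NPTX2 was higher by 3.29 ± 0.16 (adjusted p = 4.02e-07), opposite to the other called members of its list.

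None of 21 genes of oxidative phosphorylation was called by limma with a change of at least 1, yet 18 passed an unadjusted p under 0.05 and 16 were higher and 1 lower at the adjusted p alone, where 24.6% and 20.3% of all tested genes were. Their changes ran from -0.35 to 0.99 with a median of 0.55.

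Glial and vascular genes were called more often higher than lower, where 5.12% of all tested genes were higher and 5.35% lower. The counts are small, and the microglial and the vascular list each had 1 called gene. Of 10 oligodendrocyte genes, UGT8 (1.40 ± 0.11) and ANLN (1.27 ± 0.13) were higher, and the myelin gene MBP changed by 0.19 ± 0.10. UGT8 and ANLN changed by 1.98 and 1.74 against V2 alone and by 0.64 and 0.56 against MT alone, so their calls were lost against MT. Of 12 astrocyte genes, GFAP (2.08 ± 0.19), AGT (1.74 ± 0.28) and S100B (1.03 ± 0.16) were higher, and the glutamate transporter SLC1A2 was lower (-1.02 ± 0.11). A second GFAP probe set changed by -0.44, and AGT changed by 0.79 with the GAPDH difference as a covariate. S100B lost its call without male A (0.82), and SLC1A2 without female D (-0.98), female E (-0.98), male C (-0.99) or the V2 array of male A (-0.97). Of 11 microglial genes, P2RY12 was higher (1.26 ± 0.18), with 1.87 against V2 alone and 0.40 against MT alone. Of 8 endothelial and mural genes, KCNJ8 was higher (1.43 ± 0.12), and 6 were higher at the adjusted p alone, CLDN5 among them (0.59 ± 0.15, adjusted p = 0.0123). The part of these cells in the other results was not tested.

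The comparison was repeated on other arrays of the same 4 animals: the koniocellular division against layer 4 of the primary somatosensory area S1 and of temporal area TE. These 12 arrays enter none of the fits of the relay comparison. They do enter the levels by group and, with all other arrays, the choice of probe sets. Of 10203 genes tested, 377 were higher (3.69%) and 788 lower (7.72%), and 4939 (48.4%) passed the adjusted p alone. The 274 genes higher in both comparisons were 52.1% of those higher in the relay divisions and 72.7% of those higher in the koniocellular division. The 465 genes lower in both were 84.7% and 59%. No gene was called in opposite directions. Of 1062 called genes of the relay comparison that were tested here, 1037 had the same sign. The GAPDH difference overlapped between these sides, with 3.81 to 4.09 on the koniocellular arrays, 3.88 to 4.27 in S1 and 3.69 to 4.05 in TE.

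The marker genes and the largest changes named next had the same direction in that comparison. LCP1 was higher by 6.55 ± 0.14, STAR by 5.90 ± 0.19, TCF7L2 by 1.85 ± 0.13 and RORA by 2.06 ± 0.12, and SLC17A7 changed by -3.16 ± 0.13. CKM changed by -7.23 ± 0.15 and WIF1 by -6.84 ± 0.16. CADPS2 changed by -5.20 ± 0.43 in place of -6.50, and GBP1 by 1.13 ± 0.37 in place of 4.21. Other genes were not called there: GRIA4 changed by 0.93 ± 0.12, FDX1 by 0.45 ± 0.15, STARD4 by 0.77 ± 0.11, RSPO3 by 0.08 ± 0.36 and PCDH10 by 0.23 ± 0.17. SYNPR changed by -0.55 ± 0.23 there, opposite in sign to its change in the relay divisions, and was not called (adjusted p of that comparison = 0.0787). SCN3B changed by -3.79 ± 0.16 there. Both the LGN division and the cortical areas differ between the comparisons, so the source of these differences cannot be told apart.

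**Figure D5:**
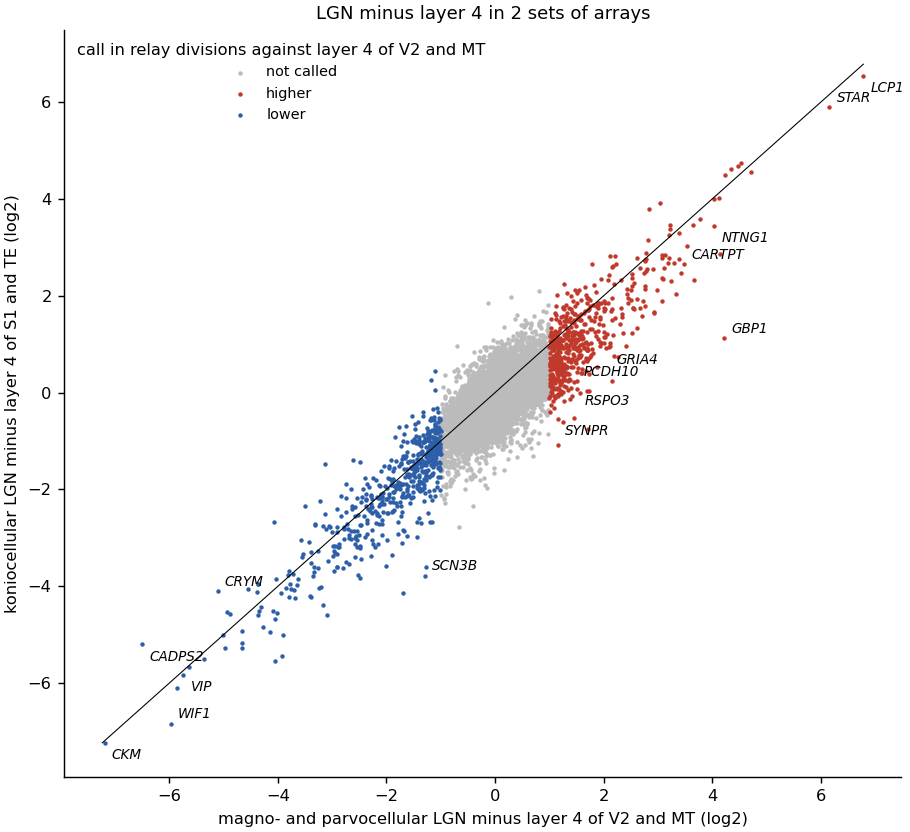
Each point is 1 gene tested in both comparisons, with its change in the magnocellular and parvocellular divisions against layer 4 of V2 and MT on the x axis and in the koniocellular division against layer 4 of S1 and TE on the y axis (both log2). The line marks equal changes and the colours give the calls of the relay comparison. LCP1, STAR and CKM lie near the line, GBP1 and SYNPR below it on the right and SCN3B below it on the left.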

How the data were processed

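RNA from dissected regions was amplified in 2 cycles and hybridised to the rhesus macaque genome array, per the labels. The values were deposited as log10 intensities per probe set, made by the authors with robust multi-array averaging (RMA) within each amplification batch and then scaled on common control samples, per the file headers. The labels do not give the amplification batch of each array, so batch could not be used in the fits. Whether batch overlaps with the LGN and cortical sides was therefore not tested. The log10 values were converted to log2. Symbols came from GEO's platform annotation: of 52865 probe sets, 24969 had 1 symbol, 361 several and 27535 none. For each of 14132 genes, the probe set of highest mean level across all 225 experimental arrays was used, and genes with a mean above the median of all probe sets (4.80) were tested. Differences were fitted in limma 3.58.1 (R 4.3.3) with the animal as a fixed block and Benjamini-Hochberg adjustment over all genes tested. A call needed an adjusted p under 0.05 and a log2 change of at least 1. Checked over all genes tested, deviations of the LGN and layer 4 values correlated at 0.205 to 0.476 within an animal and at -0.278 to 0.169 between animals. The pairing comes from the animal names in the labels. The procedure was tested on simulated data. Arrays give no counts, so the number of animals and arrays limits the precision.

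The genes and lists were chosen with earlier results of these data known. The genes named are the 10 largest increases and decreases among called genes with 1 sign in all animals (LOC symbols passed over), the 4 marker genes, defining cell type markers, up to 6 called genes per list and direction, and tested members of the transmitter receptor, transporter and HCN lists. Lists are described by counts and medians. Alternatives covered the block, the filter, the probe sets, normalization, the cortical and LGN sides, control probes and animals left out.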

Additional observations from a re-analysis of the deposited data

Results flagged for a closer look

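For each of the 145 named genes, the difference between LGN and layer 4 was examined in the 4 animals, and in 10 genes 1 animal lay far from the other 3. Chance marks about 1 in 20 genes this way.

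In female D, TCF7L2 differed by 1.98 (the others by 1.57 to 1.61), KCNH5 by 1.18 (1.52 to 1.57) and PRKG1 by 1.05 (1.77 to 1.91). The cortical side of female D was V2 alone, whereas the other animals had V2 and MT. For this female, animal and cortical area therefore cannot be told apart. In male A, SMPX differed by 4.44 (4.32 to 4.33), EPHB6 by -2.23 (-2.94 to -2.88) and the glutamate transporter SLC1A2 by -0.68 (-1.15 to -1.11). In male C, CUX2 differed by 1.98 (1.58 to 1.61) and the microglial gene CD53 by 0.21 (-0.90 to -0.71). In female E, KCNA5 differed by 1.09 (1.22 to 1.25) and the microglial gene P2RY12 by 0.48 (1.43 to 1.63). Except for CD53, all 4 animals had the same sign in each of these genes.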

How the results depend on the processing

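The counts of 526 higher and 549 lower genes became 491 and 579 with no replicate block and kept within 1.5 times under all alternatives with 1 exception: against V2 layer 4 alone, 810 genes were higher and 541 lower, so 60% of calls were higher in place of 48.9%. Against MT alone the counts were 383 and 612 (38.5% higher). At the adjusted p alone, 2521 genes passed with the GAPDH difference as a covariate, in place of 4618. Leaving out 1 animal gave 503 to 592 higher, 529 to 581 lower and 3522 to 4286 at the adjusted p alone. In the koniocellular comparison it gave 350 to 428, 765 to 838 and 3892 to 4402. There, 2206 genes passed the adjusted p alone against layer 4 of the dorsolateral prefrontal cortex, in place of 4939, and quantile normalization gave 489 higher and 659 lower (42.6% higher in place of 32.4%). The cause of these shifts was not tested.

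Of 130 named calls, 43 were lost in at least 1 alternative that tested the gene. The block changed the call of TAC3 and PDE10A among the named genes and no other. Against V1 layer 4C the sign turned for NHLH2 (-0.14), CUX2 (-1.48), GABRA2 (0.09), GABRB1 (0.24), TBR1 (-0.10), GAD2 (0.00) and CD53 (0.62). TBR1 also turned with all probe sets averaged (-0.65), against MT alone (-0.11) and with the GAPDH covariate (-0.09). Another probe set above the median existed for 48 of the named calls, and for 29 of them one moved the same way by at least 1.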
